A study of Homo sapiens with 17 samples.

Results

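The genes described here are 36 transcriptional targets of the tumour suppressor p53 outside the BCL2 family, taken from a fixed list of symbols and read from a table of 17808 genes. Each of the 36 listed symbols was found in the table. The cells are given in the labels as the human liver cancer line HepG2 with wild-type genotype, grown in serum-containing medium, and RNA-seq was available for 9 libraries. The 2-DG group had 3 libraries of cells given 40 mM 2-DG (2-deoxyglucose, a glucose analogue that is taken up and phosphorylated but not carried through glycolysis) for 48 h. The Nala group had 3 libraries of cells given 40 mM Nala, a name kept here as the labels write it, with a time of 48 h in the sample titles but 24 h in the design text. The NC group had 3 libraries of untreated cells, with 24 h in the titles, so that treatment with 2-DG and time in culture cannot be told apart. The same holds for Nala if the 48 h of its titles is right. The series also holds 6 ChIP-seq and 2 ATAC-seq samples, which were not analysed here.

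p53 is a sequence-specific transcription factor that is held at a low level by the ubiquitin ligase MDM2 and becomes active when cells sense DNA damage or other stress. It binds pairs of a decamer motif near its targets and raises the transcription of genes that slow the cell cycle, repair DNA, alter metabolism, trigger death or switch p53 off again. Several of its targets can also be raised without p53, for example SESN2, GADD45A and TNFRSF10B by the stress factors ATF4 or CHOP. In liver cells p53 is known for its response to nutrient and genotoxic stress.

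Sites that match the p53 motif are shown for the members whose promoter window held one. A RefSeq promoter window (GRCh38.p14, 250 bases before to 50 after the annotated start) was found for 28 of the 36 genes, and none was used for FBXO22, GADD45A, PHLDA3, RRM2B, TNFRSF10A, TNFRSF10B, TNFRSF10C and TP53INP1. The p53 decamer consensus, which reads the same on both strands, was present without mismatch in 3 of the 28 windows (10.7%), against 6.54% of all 27305 promoter windows. A pair of decamers at most 13 bases apart with at most 2 mismatches in all, none of them at the core C or G, was present in the windows of AEN and FDXR, 7.14% of the members' windows against 2.94% of all windows, and PLK2 held a lone decamer. In the following lines, written 5′ to 3′ on the gene's strand, capitals mark the decamers. The AEN pair spans positions -34 to -15 from the start, and the printed stretch, with its flanks, is chr15:88621296-88621335 on the plus strand. The FDXR pair, with a spacer of 10 bases, spans positions -31 to -2, within the printed stretch chr17:74872995-74873035 on the minus strand. The PLK2 decamer spans positions -132 to -123, within the printed stretch chr5:58460199-58460228 on the minus strand.

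AEN: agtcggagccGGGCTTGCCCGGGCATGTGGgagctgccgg
FDXR: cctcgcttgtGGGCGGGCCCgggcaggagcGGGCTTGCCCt
PLK2: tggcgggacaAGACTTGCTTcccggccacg

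The ATF4 element TGATGNAA, searched on both strands, was present in the window of PLK3 alone, 3.57% of the members' windows against 3.67% of all windows, and the FOXO motif GTAAACA, on both strands, in none of the 28, against 3.41% of all windows. A match describes letters in a short window and not binding, and many p53 sites are known to lie in introns outside such windows.

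Values are RPKM, reads scaled by the length of the gene model and by the counted reads of the library, which numbered 6199778 to 6653130. A gene was tested where 3 or more libraries reached 1 RPKM, which left 12922 genes. Nala replicates 2 and 3 differed by less than the sampling noise of their reads (chi-square per degree of freedom 0.923, against 2.12 to 9.89 for the pairs within 2-DG and NC), so their mean was counted as 1 sample and n = 2 for Nala. The hepatocyte identity of the label was not borne out by its markers. Of 18 hepatocyte and HepG2 markers 6 were found among the table's genes, and they summed to 2.25 to 3.76 RPKM with 2-DG, 1.91 to 2.40 RPKM with Nala and 1.74 to 2.96 RPKM in NC. All but HNF4A averaged less than 1 RPKM in each of the groups, and APOB had 0 or 1 read in every library. The ductal keratin KRT7 lay between 110.0 and 125.9 RPKM with 2-DG, between 121.2 and 129.8 RPKM with Nala and between 122.0 and 140.3 RPKM in NC. The other 5 ductal markers were low, with EPCAM at 1.42 to 3.76 RPKM and KRT19, SOX9, CFTR and SPP1 at most at 1.54 RPKM in any library, so that list does not name the cells either. Of the 5 of 6 neural markers found, L1CAM made up most, with 117.2 to 143.1 RPKM with 2-DG, 121.9 to 124.1 RPKM with Nala and 123.2 to 127.9 RPKM in NC. The cells are called by their labelled treatments below. Some markers of other cell types were lower with 2-DG. The 5 of 6 immune markers found summed to 9.44 to 15.7 RPKM with 2-DG, 25.9 to 28.2 RPKM with Nala and 25.1 to 28.5 RPKM in NC, most of it CD68, and the 5 of 6 fibroblast markers found summed to 33.2 to 50.9, 60.5 to 69.9 and 44.6 to 85.4 RPKM in the same groups. In the neural list SNAP25 and TUBB3 fell with 2-DG, by 1.10 and 0.71 on the log2 scale (limma adjusted p = 0.016 and 0.028), while L1CAM and SYP were not called. Of the 3 immune and 3 fibroblast markers tested, 2 in each list were called lower. The immune CD14 (-0.10) and the fibroblast COL1A1 (-0.27) were not called. PTPRC, LYZ and LUM of these lists were at most at 0.31 RPKM in any library, too low to test. The 5 endothelial markers summed to at most 7.91 RPKM in any library, and the part of these genes' cells in the results was not tested. In bulk RNA, RPKM is a share of a library, so a change in RNA per cell, or in the share of cells that express a gene, cannot be told apart.

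With 2-DG most of the p53 targets rose and none fell. Of the 36 genes 34 passed the filter on low values, and 27 of these rose against NC (limma, adjusted p under 0.05), where 22.6% of all tested genes rose. None of the 34 was called lower, where 20.7% of all genes were, and none was lower at an unadjusted p under 0.05 by limma or by voom on the recovered reads. At least a 2-fold rise on the log2(RPKM + 1) scale was called for 14 members, against 3.25% of all genes. The same 27 members had every 2-DG library above every NC library, which held for 27.1% of all genes. The median log2 fold change was 0.84 for the 34 members and 0.02 for all tested genes. CYFIP2 reached the filter only through its 2-DG libraries, so it had to differ, and without it 26 of 33 members rose, 13 of them at least 2-fold, with a median of 0.82. Because the genes were listed with earlier results of these data known, the counts describe them and do not test the list.

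**Figure D1:**
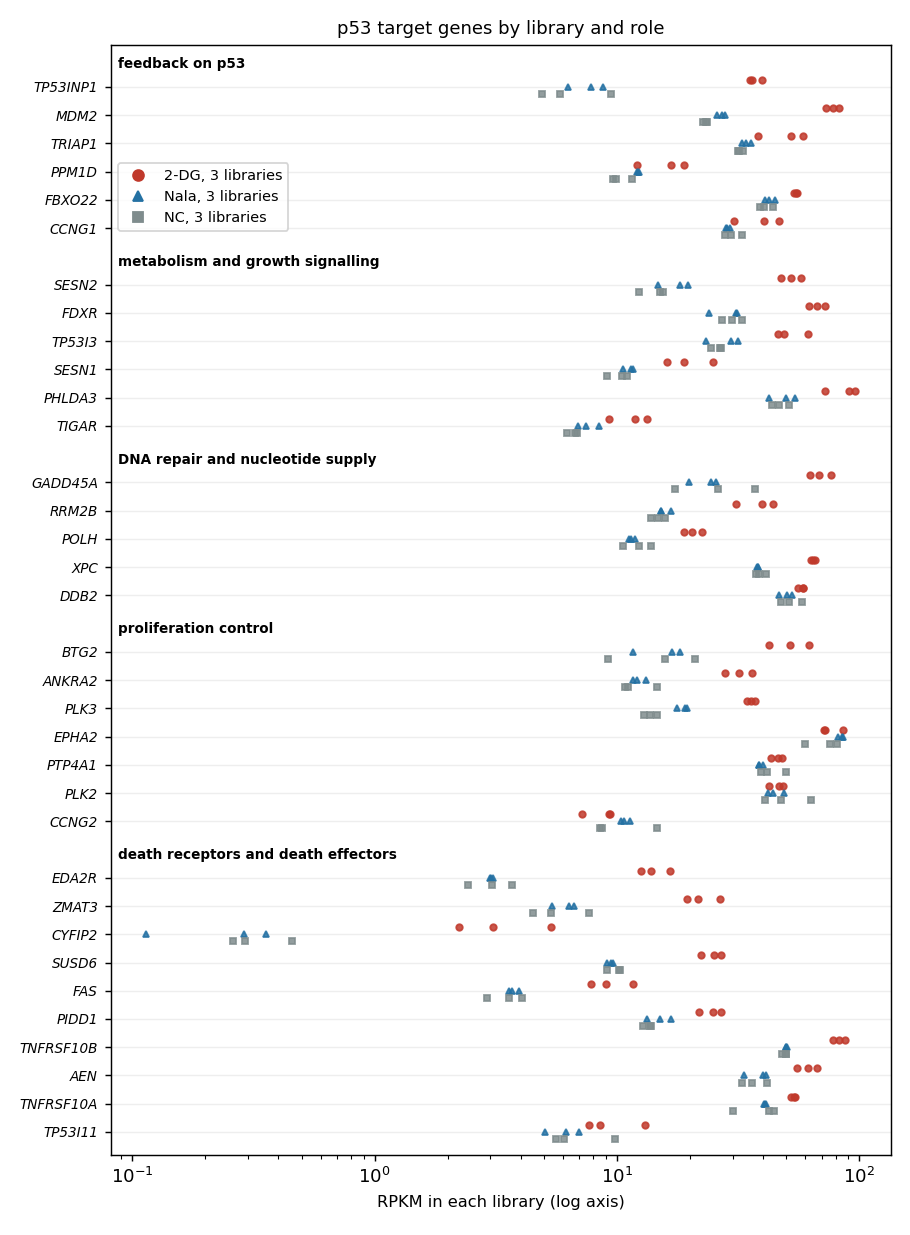
RPKM of the 34 tested p53 target genes in each library on a log axis, grouped by role, with circles for 2-DG, triangles for Nala and squares for NC (3 libraries each). For 27 genes the 2-DG circles lie to the right of every NC square, while Nala and NC mostly overlap.

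In the group of genes that feed back on p53, which also holds the apoptosis inhibitor TRIAP1, 5 of 6 rose with 2-DG, where 22.6% of all tested genes rose. TP53INP1 (chromosome 8, 94925972 to 94949378, in GRCh38.p14 as for the other genes), which promotes the activating phosphorylation of p53 and also acts in autophagy, had 36.2, 39.9 and 35.4 RPKM with 2-DG, 6.27, 8.76 and 7.85 RPKM with Nala, and 9.49, 4.92 and 5.84 RPKM in NC. Its 2-DG libraries were all above the others, and Nala and NC overlapped. It rose by 2.34 with 2-DG (SE 0.198, limma adjusted p = 2.9e-05), the largest rise among the members on the log2(RPKM + 1) scale. By the ratio of mean RPKM the low gene CYFIP2 rose more, at 10.5 against 5.51 for TP53INP1. MDM2 (chromosome 12, 68808172 to 68850686), the ligase that marks p53 for degradation, had 77.8, 82.1 and 73.1 RPKM with 2-DG, 25.9, 28.1 and 27.3 RPKM with Nala, and 23.4, 23.6 and 22.7 RPKM in NC. The spread within each group was narrow, and MDM2 rose by 1.70 with 2-DG (SE 0.0737, limma adjusted p = 8.7e-07).

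TRIAP1, an inhibitor of apoptosis in mitochondria, had 38.1, 58.5 and 52.2 RPKM with 2-DG, 32.7, 34.0 and 35.7 RPKM with Nala, and 31.6, 33.1 and 31.9 RPKM in NC. PPM1D, the phosphatase WIP1 that removes activating phosphates from p53, had 12.1, 19.0 and 16.7 RPKM with 2-DG, 12.2, 12.1 and 12.4 RPKM with Nala, and 11.5, 9.93 and 9.66 RPKM in NC. In both genes 2-DG replicate 1 was the lowest of its group and close to NC, and the rise was 0.59 for TRIAP1 (SE 0.136, limma adjusted p = 0.0074) and 0.56 for PPM1D (SE 0.154, limma adjusted p = 0.017). The PPM1D call was lost without 2-DG replicate 2, 2-DG replicate 3 or NC replicate 3 (limma adjusted p = 0.0609, 0.0592 and 0.0600, and 0.0014 to 0.0609 over all alternatives). FBXO22, a ubiquitin ligase subunit, lay between 53.7 and 55.3 RPKM with 2-DG and between 39.0 and 44.0 RPKM in NC and rose by 0.40 (limma adjusted p = 0.0019). CCNG1, cyclin G1, which directs a phosphatase to MDM2, lay between 30.4 and 46.4 RPKM with 2-DG and between 28.0 and 32.8 RPKM in NC, a log2 fold change of 0.35 that was not called (limma adjusted p = 0.070). Voom on the recovered reads called it (0.36, adjusted p = 0.0446), as did leaving out 2-DG replicate 1 (0.51, limma adjusted p = 0.0030), with 0.0030 to 0.23 over the alternatives.

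The members that act in metabolism and growth signalling rose in each of the 6 cases that could be tested, against 22.6% of all tested genes. SESN2 (chromosome 1, 28259518 to 28282491), a leucine-sensing sestrin that restrains the growth kinase mTORC1, had 47.5, 57.6 and 52.4 RPKM with 2-DG, 14.8, 18.3 and 19.6 RPKM with Nala, and 15.0, 12.3 and 15.5 RPKM in NC. It rose by 1.81 with 2-DG (SE 0.126, limma adjusted p = 9.8e-06), and its paralogue SESN1 rose less. SESN1 had 16.1, 24.8 and 18.9 RPKM with 2-DG, 10.6, 11.4 and 11.6 RPKM with Nala, and 11.0, 9.13 and 10.5 RPKM in NC, a rise of 0.88 (SE 0.152, limma adjusted p = 0.0016). Whether the changes of the paralogues differ was not tested.

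FDXR (chromosome 17, 74862497 to 74872994), the mitochondrial reductase that supplies electrons for steroid and iron-sulphur cluster synthesis, had 62.0, 72.0 and 67.0 RPKM with 2-DG, 24.1, 31.0 and 31.2 RPKM with Nala, and 30.0, 27.2 and 32.8 RPKM in NC. It rose by 1.13 with 2-DG (SE 0.112, limma adjusted p = 7.1e-05), and its promoter window is the one with the spaced decamer pair shown above. TP53I3, a quinone oxidoreductase, had 46.2, 61.4 and 48.7 RPKM with 2-DG, 23.2, 31.6 and 29.6 RPKM with Nala, and 24.4, 26.9 and 26.5 RPKM in NC, and rose by 0.97 (SE 0.130, limma adjusted p = 0.00041). PHLDA3, which competes with the kinase AKT for membrane lipids, lay between 72.6 and 96.1 RPKM with 2-DG and between 43.8 and 51.4 RPKM in NC and rose by 0.85. TIGAR, a phosphatase that lowers an activator of glycolysis, lay between 9.31 and 13.3 RPKM with 2-DG and between 6.24 and 6.82 RPKM in NC and rose by 0.71 (limma adjusted p = 0.0032). SPATA18, a factor of mitochondrial quality control, had 0 to 1 read per library with 2-DG, 0 to 2 with Nala and 0 to 2 in NC, and was not tested.

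Of the 5 members of DNA repair and nucleotide supply 4 rose with 2-DG, against 22.6% of all tested genes. GADD45A (chromosome 1, 67685201 to 67688334), a stress sensor that binds the replication clamp and stress kinases, had 62.8, 76.8 and 68.3 RPKM with 2-DG, 19.8, 25.5 and 24.5 RPKM with Nala, and 17.4, 37.1 and 26.1 RPKM in NC. It was uneven among untreated libraries, and its rise was 1.39 (SE 0.223, limma adjusted p = 0.0011). RRM2B (chromosome 8, 102204501 to 102238961), the ribonucleotide reductase subunit that serves cells outside S phase, had 30.9, 44.0 and 39.6 RPKM with 2-DG, 15.2, 15.2 and 16.8 RPKM with Nala, and 15.8, 14.7 and 13.9 RPKM in NC, a rise of 1.30 (SE 0.127, limma adjusted p = 6.9e-05).

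The damage sensors of nucleotide excision repair differed in their calls, and the difference between them was not tested. XPC had 64.5, 63.4 and 65.5 RPKM with 2-DG, 37.9, 38.2 and 38.2 RPKM with Nala, and 41.4, 38.5 and 37.5 RPKM in NC, and rose by 0.71 (SE 0.0662, limma adjusted p = 5.3e-05). DDB2, its partner in finding ultraviolet lesions, lay between 55.9 and 58.8 RPKM with 2-DG, between 46.7 and 52.5 RPKM with Nala and between 47.8 and 58.0 RPKM in NC. Its log2 fold change of 0.14 was not called (95% interval -0.04 to 0.33, limma adjusted p = 0.19), and NC replicate 1 reached the 2-DG level. POLH, a polymerase that copies past ultraviolet damage, had 20.4, 22.4 and 19.0 RPKM with 2-DG, 11.4, 11.9 and 11.2 RPKM with Nala, and 13.8, 10.6 and 12.3 RPKM in NC, and rose by 0.71 (SE 0.115, limma adjusted p = 0.0012).

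Control of proliferation was the role with the fewest rises, 3 of 7, beside 22.6% of all tested genes. Differences between the roles were not tested. BTG2 (chromosome 1, 203305519 to 203309602), an antiproliferative protein that promotes mRNA deadenylation, had 42.5, 61.9 and 51.8 RPKM with 2-DG, 11.7, 16.9 and 18.1 RPKM with Nala, and 21.0, 9.18 and 15.7 RPKM in NC. It had the widest spread of the members among the NC libraries and rose by 1.76 (SE 0.267, limma adjusted p = 0.00083). ANKRA2, an ankyrin repeat protein, had 28.0, 36.1 and 32.0 RPKM with 2-DG, 13.2, 11.6 and 12.1 RPKM with Nala, and 14.7, 10.8 and 11.1 RPKM in NC, and rose by 1.33 (SE 0.138, limma adjusted p = 9.3e-05).

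The polo-like kinases PLK3 and PLK2 are described together, and the difference between their changes was not tested. PLK3 (chromosome 1, 44800377 to 44805990) had 37.1, 35.7 and 34.5 RPKM with 2-DG, 17.7, 19.1 and 19.4 RPKM with Nala, and 12.9, 13.7 and 14.7 RPKM in NC, so the 3 groups did not overlap, and it rose by 1.32 with 2-DG (SE 0.0873, limma adjusted p = 7.4e-06). PLK2, whose promoter window holds the lone decamer, lay between 42.3 and 48.3 RPKM with 2-DG, between 41.9 and 48.8 RPKM with Nala and between 40.7 and 63.1 RPKM in NC (2-DG against NC, log2 fold change -0.11, 95% interval -0.43 to 0.21, limma adjusted p = 0.55). The other members of this role were not called either. CCNG2, cyclin G2, lay between 7.16 and 9.38 RPKM with 2-DG and between 8.50 and 14.6 RPKM in NC, a log2 fold change of -0.24 (95% interval -0.68 to 0.20, limma adjusted p = 0.34). The phosphatase PTP4A1 and the receptor tyrosine kinase EPHA2 had log2 fold changes of 0.08 and 0.09 (95% intervals -0.13 to 0.29 and -0.16 to 0.35, limma adjusted p = 0.53 and 0.54).

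Among death receptors, death effectors and the other targets grouped with them 9 of the 10 tested genes rose, against 22.6% of all tested genes. The 9 include CYFIP2, which passed the filter on low values only through 2-DG. EDA2R (chromosome X, 66595637 to 66639269), a receptor of the tumour necrosis factor family, had 13.9, 16.6 and 12.5 RPKM with 2-DG, 3.04, 3.08 and 2.99 RPKM with Nala, and 3.04, 2.42 and 3.67 RPKM in NC, and rose by 1.93 (SE 0.155, limma adjusted p = 2.2e-05). ZMAT3 (chromosome 3, 179017223 to 179072513), an RNA-binding zinc finger protein, had 19.4, 26.6 and 21.6 RPKM with 2-DG, 5.38, 6.62 and 6.32 RPKM with Nala, and 7.66, 4.51 and 5.32 RPKM in NC, and rose by 1.80 (SE 0.183, limma adjusted p = 8.4e-05). Both had 2-DG libraries far above the rest, with no overlap.

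CYFIP2, a subunit of the actin-regulating WAVE complex, was nearly silent without 2-DG. It had 2.23, 5.34 and 3.09 RPKM with 2-DG (94, 237 and 135 reads), 0.114, 0.355 and 0.288 RPKM with Nala (5, 16 and 13 reads), and 0.457, 0.292 and 0.261 RPKM in NC (20, 13 and 11 reads). It passed the filter on low values only through 2-DG, so its call is no separate evidence and its values are a description. Its log2 fold change of 1.71 is on the log2(RPKM + 1) scale, which understates low genes, and the ratio of its mean RPKM was 10.5. SUSD6, a membrane protein, had 25.1, 26.9 and 22.3 RPKM with 2-DG, 9.11, 9.59 and 9.42 RPKM with Nala, and 10.3, 9.10 and 10.2 RPKM in NC, and rose by 1.24 (SE 0.104, limma adjusted p = 2.8e-05).

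The receptors of the death ligands FASL and TRAIL rose by different amounts from different levels. FAS lay between 7.80 and 11.6 RPKM with 2-DG and between 2.91 and 4.07 RPKM in NC and rose by 1.205 (SE 0.165, limma adjusted p = 0.00046). TNFRSF10B, the TRAIL receptor DR5, lay between 77.7 and 87.6 RPKM with 2-DG, the highest level among the death receptors, and between 48.1 and 49.97 RPKM in NC, and rose by 0.73 (SE 0.0651, limma adjusted p = 3.9e-05). TNFRSF10A, the TRAIL receptor DR4, lay between 52.2 and 54.2 RPKM with 2-DG and between 30.2 and 44.3 RPKM in NC and rose by 0.46 (SE 0.127, limma adjusted p = 0.016). The decoy receptor TNFRSF10C had 0, 4 and 3 reads with 2-DG, 0 reads in each Nala library, and 0, 1 and 1 reads in NC, too few to test. PIDD1, the scaffold that activates caspase-2, rose by 0.82 (SE 0.109) and AEN, a nuclease of apoptotic cells whose window holds the adjoining decamer pair, rose by 0.72 (SE 0.115). TP53I11 lay between 7.64 and 13.02 RPKM with 2-DG and between 5.61 and 9.82 RPKM in NC and was not called (log2 fold change 0.40, 95% interval -0.13 to 0.92, limma adjusted p = 0.20). Without NC replicate 1, its highest NC library, the call was made (log2 fold change 0.62, limma adjusted p = 0.0446, and 0.0446 to 0.55 over the alternatives).

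**Figure D2:**
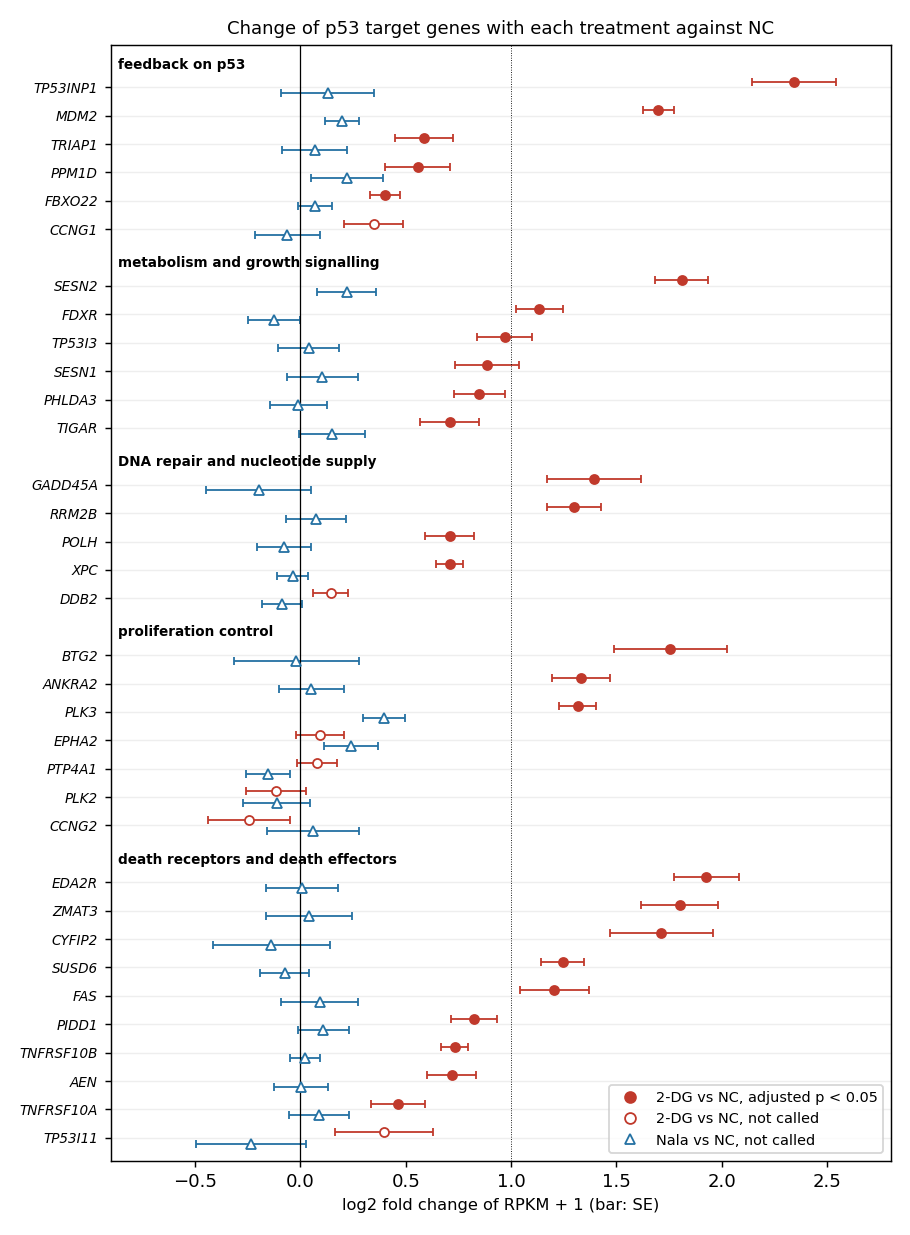
Log2 fold change of RPKM + 1 against NC with its SE for each tested p53 target gene, circles for 2-DG and triangles for Nala, filled where the limma adjusted p was under 0.05. The 27 filled circles run from 0.40 to 2.34, while the triangles run from -0.23 to 0.40 and none is filled.

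The larger rises were at genes of lower level in untreated cells. The 14 members with at least a 2-fold rise had mean levels with 2-DG of 3.55 to 77.7 RPKM (median 36.5) and in NC of 0.337 to 30.0 RPKM (median 12.97), while the 13 members with a smaller rise had medians of 52.1 RPKM with 2-DG and 32.2 RPKM in NC. The 7 members not called had medians of 45.8 RPKM with 2-DG and 43.6 RPKM in NC. Spearman's rho between the log2 fold change and the NC mean was -0.54 over the 34 genes, which share their libraries, and both measures use the NC values. Both the 14 and the 34 genes include CYFIP2, which has the lowest NC mean (0.337 RPKM) and passed the filter only through 2-DG. Its low NC level beside a rise was thus fixed by the filter, and these values were not recomputed without it. The highest RPKM of any gene in a library ran from 174.9 in Nala replicate 3 to 229.6 in NC replicate 3. Whether this narrow range at the top limits the rise of genes at high levels was not tested.

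The 2-DG libraries differed in how far the members rose. Replicate 2 held the highest value of its group at 27 of the 34 genes, where it did so at 37.4% of all tested genes, and replicate 1 held the lowest at 21, where it did so at 50.7% of all genes. The summed level of the 34 genes was 1328, 1531 and 1390 RPKM in the 2-DG libraries, between 795 and 852 RPKM in the Nala libraries and 800, 818 and 811 RPKM in the NC libraries. The 2-DG sums were thus all above the others, whichever replicate is taken.

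**Figure D3:**
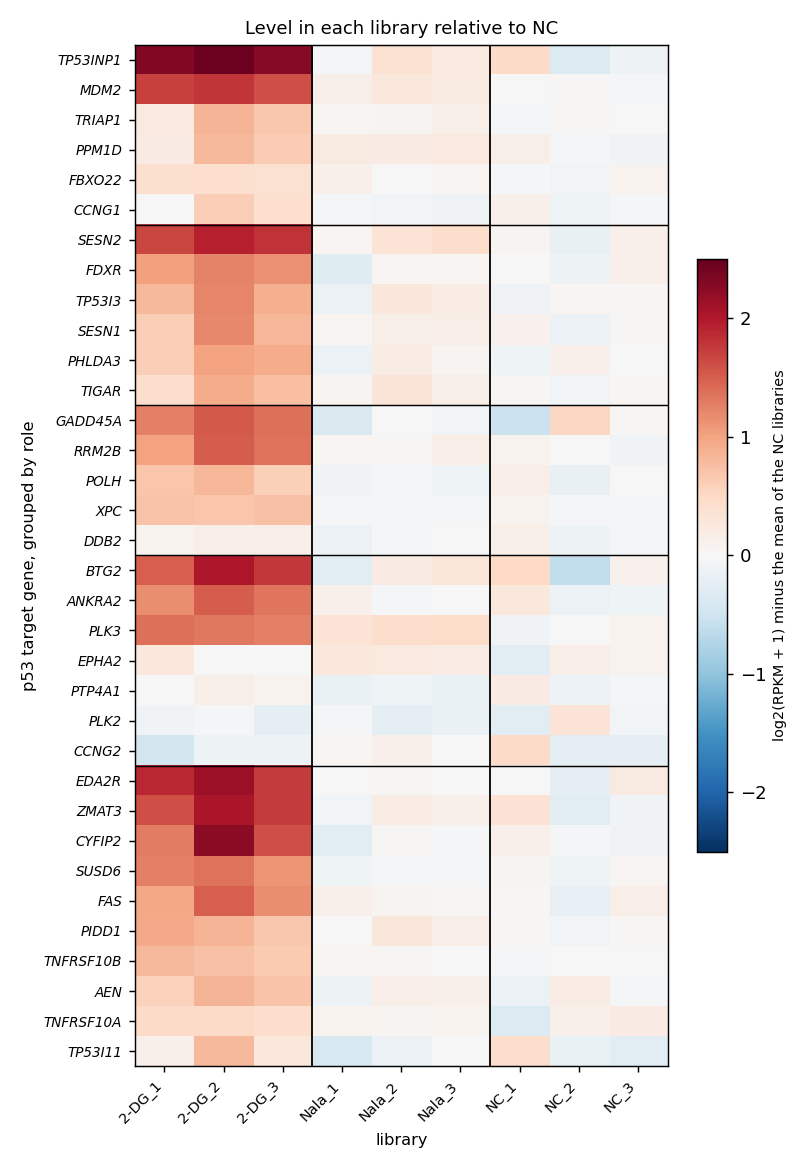
Log2(RPKM + 1) of each tested p53 target gene in each library minus the mean of the NC libraries, with genes grouped by role and red for higher and blue for lower values. The 2-DG columns are red for most genes and deepest in replicate 2, and the Nala columns stay near the NC level.

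With Nala no p53 target was called against NC. Of the 34 tested genes 0 rose and 0 fell (limma, adjusted p under 0.05), where 0.0619% of all tested genes rose and 0% fell, and voom on the recovered reads also called 0. At an unadjusted p under 0.05, PLK3 and MDM2 were higher and none was lower by either tool, where 3.58% of all genes were higher by limma. Over the members the median log2 fold change was 0.04, and over all genes it was 0.01. For each of the 34 genes the 95% interval on the log2(RPKM + 1) scale lay within a 2-fold change in either direction. Its bounds ran from -0.82 to 0.65 over the genes. That scale narrows the changes of low genes such as CYFIP2, whose ratio of mean RPKM between Nala and NC was 0.646. Voom gave such an interval for 33 of the 34 genes, with bounds from -2.01 to 0.84 over all of them. The comparisons of 2-DG and of Nala with NC share the NC libraries. By the sample titles the times of Nala and NC also differ, at 48 h and 24 h.

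The members nearest to a rise with Nala were few. PLK3 had every Nala library above every NC library, at the values given above, with a log2 fold change of 0.40 (SE 0.0976, 95% interval 0.18 to 0.62, limma adjusted p = 0.31, and 0.0587 to 1 over the alternatives). MDM2 had a log2 fold change of 0.20 (SE 0.0824, 95% interval 0.01 to 0.38, limma adjusted p = 0.84), again with Nala libraries above NC. TIGAR, PPM1D and EPHA2 were the other members with no overlap, which made 5 of 34, where 10.2% of all genes had every Nala library above every NC library. EPHA2 lay between 81.8 and 85.6 RPKM with Nala and between 59.6 and 80.7 RPKM in NC (log2 fold change 0.24, limma adjusted p = 0.97).

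**Figure D4:**
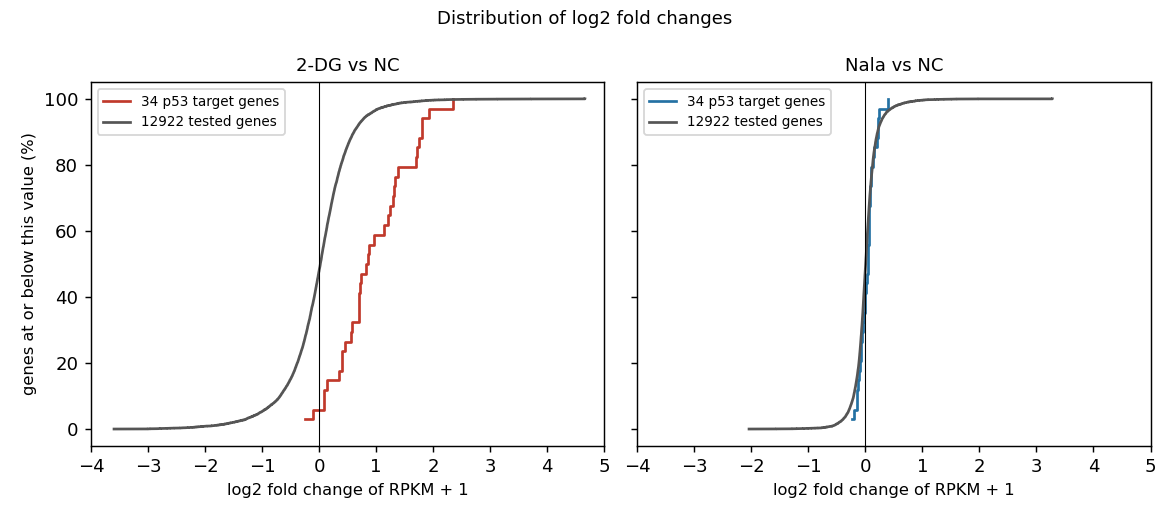
Cumulative share of genes in percent against the log2 fold change of RPKM + 1, for the 34 p53 target genes (coloured) and all 12922 tested genes (grey), with 2-DG against NC on the left and Nala against NC on the right. The members' curve lies to the right of the grey one with 2-DG, at medians of 0.84 and 0.02, and the curves nearly coincide with Nala, at 0.04 and 0.01.

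Set directly against 2-DG, the Nala libraries had lower p53 targets. Of the 34 genes 25 were lower with Nala than with 2-DG (limma, adjusted p under 0.05), where 18.0% of all tested genes were lower, and 0 were higher, where 17.9% of all genes were. None was higher at an unadjusted p under 0.05 by limma or voom. At least 2-fold lower levels were called at 13 members, against 2.97% of all genes, and these included TP53INP1 at -2.21 (SE 0.221, limma adjusted p = 0.00012), EDA2R at -1.92 (SE 0.173, limma adjusted p = 6.4e-05), BTG2 at -1.77 (SE 0.298) and ZMAT3 at -1.76 (SE 0.204). Without CYFIP2, which passed the filter only through 2-DG, 24 of 33 members were called lower, 12 of them at least 2-fold. Every Nala library was below every 2-DG library at 30 of the 34 members, against 29.4% of all genes, and the exceptions were PPM1D, PLK2, CCNG2 and EPHA2. This comparison shares its 2-DG libraries with the one above, and the stated times agree for the sample titles but not for the series design.

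Some calls between Nala and 2-DG turned on 1 library. TRIAP1 (log2 fold change -0.52, limma adjusted p = 0.026) and TIGAR (-0.56, limma adjusted p = 0.021) were not called without 2-DG replicate 2, 2-DG replicate 3 or Nala replicate 1. Over the alternatives the limma adjusted p lay between 0.00059 and 0.149 for TRIAP1 and between 0.0037 and 0.154 for TIGAR, with the highest values without Nala replicate 1. SESN1 (log2 fold change -0.78) was not called without Nala replicate 1 (limma adjusted p = 0.0655, and 0.0017 to 0.0655 over the alternatives). Then a lone averaged sample stands for Nala and is assumed to vary like the other groups. PPM1D and CCNG1 were called lower without 2-DG replicate 1, and DDB2, TNFRSF10A and TP53I11 without NC replicate 1, which enters this comparison only through the shared spread. Not all of these gains needed a library left out. TNFRSF10A and CCNG1 were also called by voom and with Nala replicates 2 and 3 kept apart, with or without a replicate block. TNFRSF10A was called with only the groups compared, CCNG1 with quantile normalization and TP53I11 by voom.

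Of 19 tested regulators of p53, 3 rose and 3 fell with 2-DG, where 22.6% of all tested genes rose and 20.7% fell. The median of the list was 0.07 on the log2 scale, beside 0.02 over all genes. The largest called changes were falls of the checkpoint kinase CHEK2 (-0.66, SE 0.0895, limma adjusted p = 0.00043) and of TP73, a relative of p53 (-0.61, SE 0.182, limma adjusted p = 0.023). MDM4, a partner of MDM2 that masks p53, rose by 0.47 (limma adjusted p = 0.014). MDM4 and, in the following lines, CDKN1A and PCNA were chosen with their values known. Levels of mRNA do not show the amount or activity of the p53 protein.

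Other p53 targets, outside the list of 36, changed in both directions. Of 32 tested genes 14 rose and 3 fell with 2-DG, beside 22.6% and 20.7% of all genes, at a median of 0.31 on the log2 scale, and none was called with Nala against NC. TRIM22, an antiviral ubiquitin ligase, had 24.4 ± 4.25 RPKM with 2-DG (SD, n = 3) and 1.67 ± 0.658 RPKM in NC (SD, n = 3) and rose by 3.27 (SE 0.209, limma adjusted p = 6.1e-06). ACER2, a ceramidase, rose by 2.07 (SE 0.153, limma adjusted p = 1.4e-05). The cell cycle inhibitor CDKN1A had 110.3 ± 6.92 RPKM with 2-DG and 59.3 ± 11.3 RPKM in NC (SD, n = 3 each) and rose by 0.90 (limma adjusted p = 0.0013), and the replication clamp PCNA fell by 0.41 (limma adjusted p = 0.0034). Of 7 BCL2 family genes 4 rose and 1 fell, beside the same 22.6% and 20.7% of all genes, with BBC3 at 1.62 (SE 0.155) and BID at -0.71 (SE 0.143).

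Genes raised by stress factors that share targets with p53 were called too. Of 18 ATF4 and CHOP genes 14 rose with 2-DG and 0 fell by limma, beside 22.6% and 20.7% of all tested genes. Their median was 1.07 on the log2 scale, and CHAC1, a glutathione-degrading enzyme, rose by 2.84 (SE 0.385). The hormone gene FGF21, at 3.43, and FBXO32, the muscle ubiquitin ligase of the FOXO list, at 1.85, had the largest values of their lists but passed the filter only through 2-DG, so their calls, counted above and below, are no separate evidence. FGF21 lay between 8.76 and 12.99 RPKM with 2-DG and at most at 0.234 RPKM in NC, and FBXO32 between 3.21 and 6.10 RPKM with 2-DG and at most at 0.868 RPKM in NC. Of 12 FOXO targets outside the members 6 rose and 2 fell, beside the same 22.6% and 20.7% of all genes. Their median was 0.28, and TXNIP, which restrains glucose uptake, rose by 1.67 (SE 0.258). With Nala, 13 of the 18 ATF4 and CHOP genes were lower than with 2-DG, where 18.0% of all tested genes were lower. None of the 18 was called with Nala against NC. The part of ATF4, CHOP or FOXO in the rise of SESN2, GADD45A, TNFRSF10B or other members was not tested.

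Several members overlap another gene. No source used here says whether the counting used strand, so shared reads cannot be assigned. FAS overlaps ACTA2, a smooth muscle actin, which had 26.1 ± 8.02 RPKM with 2-DG and 2.67 ± 1.42 RPKM in NC (SD, n = 3 each) and rose by 2.91. POLH overlaps the GTPase gene GTPBP2, which rose by 0.85. That overlap is short, with POLH up to 43620523 and GTPBP2 from 43620494 on chromosome 6. TP53I3 overlaps FAM228B, which averaged 2.29 RPKM with 2-DG and 1.18 RPKM in NC. FAM228B reached 1 RPKM in 2 libraries outside 2-DG, so it needed its 2-DG libraries to pass the filter. The partners of FBXO22 and TNFRSF10B changed the other way, NRG4 at -0.72 and RHOBTB2 at -0.46. The stretch shared with TNFRSF10B is short too, with RHOBTB2 up to 23020199 and TNFRSF10B from 23020133 on chromosome 8. The partners of MDM2 (CPM), TP53INP1 (NDUFAF6), CCNG1 (NUDCD2) and SESN1 (ARMC2) were not called, at log2 fold changes of -0.34, 0.24, -0.38 and -0.18.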

How the data were processed

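The deposited table holds RPKM values for 17808 genes in 9 RNA-seq libraries, which the series design calls biological replicates, 3 per group. The build was hg38 per the submitters' processing notes, and the tools for the series included HISAT2 2.1.0, Bowtie2 2.2.5, RSEM 1.2.8 and STAR 2.7.6a, with no role given. Library totals were found from the RPKM ratios between libraries. With these totals, whole reads were recovered for 100% of genes within 0.0001 reads, and in each library they summed to 99.9% of the total. Genes that reached 1 RPKM in 3 or more libraries were tested on log2(RPKM + 1) with limma 3.58.1 (R 4.3.3) and an intensity trend, in 1 fit of 3 groups over all 12922 genes, with Benjamini-Hochberg adjustment over all of them, a threshold of 0.05 and no covariate. The mean of Nala replicates 2 and 3 entered as 1 sample, which left 8 samples and 5 residual degrees of freedom. The fit was run on simulated reads with a common dispersion for all genes, so that run does not measure its accuracy on these libraries. Intervals of 95% are not adjusted. The members, their roles and the other lists were chosen with earlier results of these data known. Values per library are given for up to 4 called members of each role with the largest change, and for each pathway list the 2 called genes with the largest change are named. Positions and promoters are from RefSeq (GRCh38.p14). Alternatives covered the pseudocount, the filter, scaling, the trend, the samples in the fit, a replicate block, voom on recovered reads and each library left out. One gene of the list of p53 regulators is not reported here.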

Additional observations from a re-analysis of the deposited data

How the results depend on the processing

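The number of p53 targets called with 2-DG against NC was 27 and lay between 26 and 28 over the alternatives. For Nala against NC it was 0 in each, and for Nala against 2-DG it was 25 and lay between 22 and 28. Over single members, 673 of the values recomputed for 2-DG against NC kept their side of the threshold, 3 gained a call and 3 lost one. For Nala against NC 679 did, and for Nala against 2-DG 658 did, 14 gained a call and 7 lost one. No called direction reversed. Values that were not called could change sign, as for PLK2 with 2-DG against NC (log2 fold change -0.25 to 0.06 over the alternatives). The count of all genes called between Nala and NC, 8, was small and moved. It was 16 with a common library sum, 15 with a filter of 5 RPKM, 13 with median-of-ratios scaling, 17 with quantile normalization, 25 without a filter, 64 with the Nala pair kept apart and 72 with voom. The cause was not tested. Leaving out 1 library gave 2 to 23, with 23 without 2-DG replicate 1, 20 without Nala replicate 3, 19 without NC replicate 1, 4 without NC replicate 3 and 2 without Nala replicate 1. Between Nala and 2-DG, where 4639 genes were called, it gave 2212 to 5261, with 2212 without Nala replicate 1, which leaves 1 Nala sample. The replicate numbers did not pair the samples, since same-numbered deviations of 2-DG and NC correlated at -0.03, 0.05 and -0.06. With the replicate block and the Nala pair apart, 27, 0 and 27 members were called for 2-DG against NC, Nala against NC and Nala against 2-DG, and 5867, 31 and 5708 genes in all. Depth limits the low members most, where 1 read per 1 kb of gene model stands for 0.150 to 0.161 RPKM.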
